A study of Mus musculus with 8 samples.

Results

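The regions described here are multi-summit H3K9me3 regions without H3K9me2, stretches of chromatin trimethylated at lysine 9 of histone H3 in which the peak calls found at least 2 summits. They were selected by their peak calls, and the rule itself used neither the deposited read counts nor the comparison between genotypes. The peaks were called from these same KO and WT libraries, so the selection is not independent of their signal. A region had to lie on chromosomes 1-19 or X, list 2 or more summit positions, and share no base with any region of the H3K9me2 table. This left 1381 of 14515 H3K9me3 regions (9.51%). Of the 1909 multi-summit regions in the table, another 456 shared bases with H3K9me2 and 72 lay elsewhere in the assembly.

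The study used ChIP-seq, in which an antibody against a histone mark pulls down chromatin fragments that are then sequenced. The cells were mouse embryonic fibroblasts of C57bl6 background, taken from HAT1+/+ (WT) or HAT1-/- (KO) embryos and immortalized with SV40. H3K9me2 and H3K9me3 were each profiled in 2 WT and 2 KO samples, and chromatin of human Dbt immortalized myoblasts was mixed in as a spike-in. The comparison asked how H3K9 methylation differs when HAT1, the enzyme that acetylates newly made histone H4, is missing. Immortalized lines drift in culture, and the titles do not say which embryo a library came from.

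The total of each H3K9me3 library, as implied by the deposited reads-per-million values, was between 4198682 and 5810913. It was lower in KO (at most 4622354) than in WT (at least 5696058). Whether the spike-in entered these totals was not given in the sources used here. Counts per region were low, with library medians over the members of 28 and 31 in KO and 23 and 24 in WT. No H3K9me3 region overlapped Hat1 itself, so the genotypes rest on the labels. WT library 2 stood apart on chromosome X and on parts of chromosome 13, and values that touch these are given with the results.

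H3K9me3 marks constitutive heterochromatin. Enzymes such as SETDB1 and SUV39H1 write it, and HP1 proteins bind it and compact the chromatin. In fibroblasts it is known to coat transposable elements, satellite repeats, clusters of zinc-finger genes and imprinted control regions. H3K9me2 is written mainly by EHMT1 and EHMT2 and covers broader, gene-poor domains at the nuclear edge.

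Many of the regions carried sequence that occurs elsewhere in the table. The 200-base window around the first summit aligned to that of at least one other H3K9me3 region, with 80% identity or more over at least 150 bases, in 796 members (57.6%), against 54.4% of the 12255 one-summit regions without H3K9me2. The 5 windows below stand for groups of members that share sequence in this way, and 2 single members follow them. They were chosen after their values were seen, to show how far the members differ in CpG dinucleotides. Each is 300 bases of the plus strand of GRCm38.p6, the assembly of mm10, with every CG in capitals.

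Group 1, chr10:98224172-98224471: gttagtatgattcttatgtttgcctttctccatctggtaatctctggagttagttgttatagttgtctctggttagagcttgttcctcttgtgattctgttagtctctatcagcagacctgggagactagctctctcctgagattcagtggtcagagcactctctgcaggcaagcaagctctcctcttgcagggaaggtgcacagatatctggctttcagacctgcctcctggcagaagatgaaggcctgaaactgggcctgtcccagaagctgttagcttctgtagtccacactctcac

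Group 4, chr5:70013968-70014267: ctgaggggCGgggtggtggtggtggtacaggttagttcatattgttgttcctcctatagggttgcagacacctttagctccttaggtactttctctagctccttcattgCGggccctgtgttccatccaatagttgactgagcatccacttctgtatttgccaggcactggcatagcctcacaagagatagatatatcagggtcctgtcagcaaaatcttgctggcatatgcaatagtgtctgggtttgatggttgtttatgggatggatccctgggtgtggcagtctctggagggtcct

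Group 6, chr12:58485044-58485343: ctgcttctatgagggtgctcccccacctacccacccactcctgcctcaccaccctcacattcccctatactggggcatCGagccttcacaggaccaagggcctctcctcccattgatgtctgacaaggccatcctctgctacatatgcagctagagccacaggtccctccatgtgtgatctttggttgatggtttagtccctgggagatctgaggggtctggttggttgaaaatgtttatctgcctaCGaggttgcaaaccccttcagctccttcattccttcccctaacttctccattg

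Group 7, chr16:53192566-53192865: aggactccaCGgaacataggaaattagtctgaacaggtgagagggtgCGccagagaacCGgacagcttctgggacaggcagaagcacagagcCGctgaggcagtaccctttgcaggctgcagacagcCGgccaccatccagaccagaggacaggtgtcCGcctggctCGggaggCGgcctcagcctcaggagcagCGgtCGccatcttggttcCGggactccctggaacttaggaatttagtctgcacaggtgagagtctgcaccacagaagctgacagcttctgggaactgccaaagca

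Group 8, chr3:22621491-22621790: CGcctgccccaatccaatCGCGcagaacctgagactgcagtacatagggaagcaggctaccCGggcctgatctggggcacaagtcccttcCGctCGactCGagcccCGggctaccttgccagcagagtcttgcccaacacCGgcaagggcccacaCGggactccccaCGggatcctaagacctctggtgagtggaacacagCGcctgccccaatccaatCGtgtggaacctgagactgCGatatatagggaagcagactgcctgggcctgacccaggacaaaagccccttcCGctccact

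Klf14, chr6:30957694-30957993: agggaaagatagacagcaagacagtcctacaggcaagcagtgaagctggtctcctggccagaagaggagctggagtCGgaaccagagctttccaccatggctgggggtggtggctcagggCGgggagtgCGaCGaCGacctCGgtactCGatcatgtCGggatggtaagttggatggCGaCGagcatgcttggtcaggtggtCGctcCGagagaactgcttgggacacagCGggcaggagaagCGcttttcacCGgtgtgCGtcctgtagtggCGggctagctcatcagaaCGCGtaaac

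C230088H06Rik intron, chr4:147401206-147401505: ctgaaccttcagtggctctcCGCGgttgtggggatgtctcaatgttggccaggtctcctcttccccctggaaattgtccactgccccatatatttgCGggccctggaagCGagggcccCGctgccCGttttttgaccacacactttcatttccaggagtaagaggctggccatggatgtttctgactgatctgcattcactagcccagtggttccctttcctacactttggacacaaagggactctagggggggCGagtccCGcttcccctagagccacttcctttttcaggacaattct

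The windows of groups 1, 4 and 6 held 0, 2 and 2 CG, whereas those of groups 7 and 8 held 11 and 15. The Klf14 window, in an exon that codes for a Krüppel-like transcription factor, held 19. The C230088H06Rik window, from the member with the most signal, held 8. The groups themselves were large. Group 4 joined 16 members on 10 chromosomes to 280 regions of the table in all, and group 6 joined 13 members to 217. How reads that match many copies were placed was not given in the sources used here.

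Most members had few summits. There were 1171 with 2 summits (84.8%), 155 with 3, 52 with 4 and 3 with 5 or more, up to 7. The distance from the first to the last summit had a median of 113 bp, and 343 members (24.8%) had all summits within 50 bp. In 318 members the positions were not in ascending order and in 7 a position was repeated. The table does not say which library each summit came from, so 2 close summits can be 1 peak called in several libraries.

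The members were wider than one-summit regions, with a median of 445 bp (quartiles 365 and 556, range 240 to 1283) against 273 bp. Width was greater with more summits, from a median of 432 bp at 2 summits to 552 bp at 3 and 606 bp at 4 or more. Signal followed the same order. The median of the mean signal over the 4 libraries, in RPM (counts scaled to the size of the library), was 3.26 in one-summit regions, 5.15 at 2 summits, 7.78 at 3 and 12.6 at 4 or more. Per kilobase of width the difference was small, 11.6 RPM at 2 summits against 11.1 in one-summit regions, and larger at 4 or more, 20.7 RPM. Regions with several summits that shared H3K9me2 had a like width, 450 bp, and a median of 16.1 RPM. These values depend on the peak calls that chose the members, so they are a description with no test.

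On the near side of the 2-summit threshold, the member with the least signal lay 1.15 kb from Areg, at chr5:91149580-91149850, with counts of 3 and 20 in KO and 20 and 2 in WT. On the far side, the one-summit region without H3K9me2 that had the most signal lay at chr2:160114289-160114534, with counts of 279 and 365 in KO and 545 and 496 in WT.

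**Figure D1:**
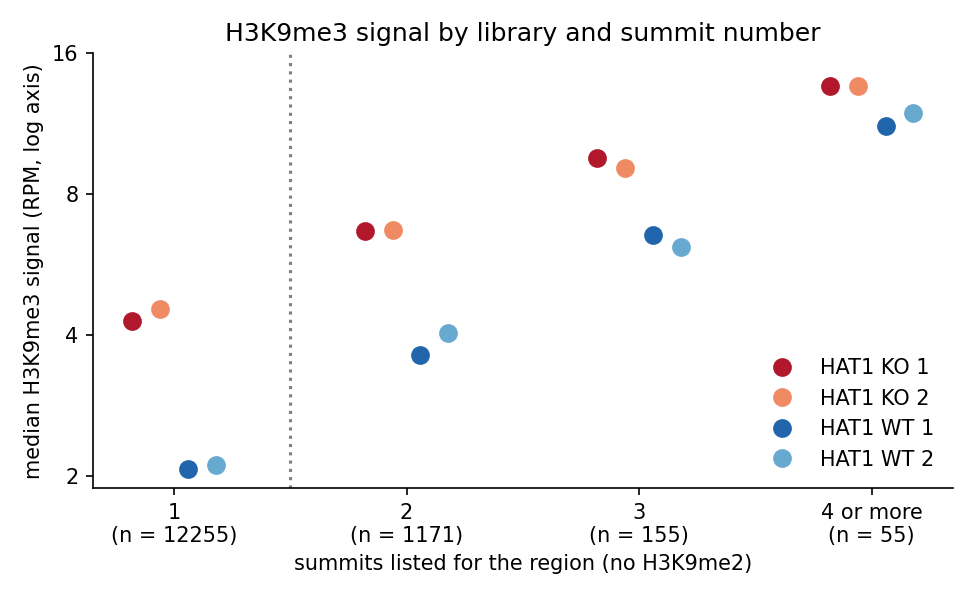
Median H3K9me3 signal (deposited RPM, log axis) over regions without H3K9me2, by number of summits, with 1 point per library. Both KO libraries lie above both WT libraries in each class, and the gap is widest at 1 summit (4.29 and 4.54 against 2.07 and 2.11 RPM) and narrowest at 4 or more (13.6 and 13.6 against 11.2 and 11.9 RPM). The dotted line is the threshold for members.

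Reads in the members took a larger part of the KO libraries. The share of the implied library total was 1.07% (95% Wilson interval 1.07 to 1.08) and 1.09% (1.08 to 1.10) in KO. In WT it was 0.690% (0.683 to 0.696) and 0.735% (0.728 to 0.742). The means were 1.08% ± 0.00875 and 0.713% ± 0.0323 (SD, n = 2), a ratio of 1.52. The groups did not overlap, and the exact two-sided permutation test gave p = 0.33, the smallest that 2 libraries against 2 can reach. One-summit regions without H3K9me2 held 5.32% ± 0.236 of reads in KO and 2.84% ± 0.195 in WT, a ratio of 1.87. Set against those one-summit regions, reads in members amounted to 20.9% and 19.8% in KO and 25.5% and 24.7% in WT. Of the reads in all H3K9me3 regions, in place of the library total, members held 5.44% and 5.34% in KO and 5.74% and 5.41% in WT. On this base the WT mean was the higher and the groups overlapped. The intervals cover counting error only. With all H3K9me3 regions as the base, the members' mean share had a KO to WT ratio of 0.966. The ratio of 1.52 was therefore not particular to the members. Whether the pull-down or the handling of the spike-in had a part in it was not tested. In bulk chromatin, more cells with the mark and more mark per cell also cannot be told apart.

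Region by region, both KO libraries exceeded both WT libraries in RPM at 808 members (58.5%), against 58.7% of all 14515 H3K9me3 regions, so the members were near the background. The reverse order, both WT libraries on top, was found at 56 members (4.06%, against 2.54% of all regions). A KO library was the highest of the 4 at 85.2% of members, near the 82.4% of the 14370 regions on chromosomes 1-19 and X. The difference between genotypes, as log2 counts scaled by library totals, had a median of 0.76 (quartiles 0.30 and 1.28). Its size passed both within-genotype differences at 47.9% of members and at 45.7% of those 14370 regions.

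The direction of the genotype difference depended on the scaling. Library totals keep a shift shared by all regions, whereas TMM (trimmed mean of M-values) scaling centres most regions on no difference. With TMM the median difference over members was -0.21 (quartiles -0.67 and 0.31), and 38.2% of members were higher in KO against 86.5% with library totals. Over all regions of chromosomes 1-19 and X the medians were 0.98 with library totals and 0.04 with TMM. The library medians over members, in log2 scaled counts, were 5.13 ± 0.00560 in KO and 4.44 ± 0.0608 in WT with library totals, and 4.66 ± 0.0685 and 4.95 ± 0.0284 with TMM (SD, n = 2). The exact permutation test gave p = 0.33 for both. Under either scaling the members' median lay below that of one-summit regions, which was 1.03 with library totals and 0.09 with TMM. It lay above that of multi-summit regions that shared H3K9me2, which was 0.53 and -0.48, so the smaller KO excess was not particular to the members.

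More summits went with a smaller KO excess. With library totals the median difference was 0.85 at 2 summits, 0.53 at 3 and 0.18 at 4 or more. With TMM it was -0.13, -0.46 and -0.82. No member with 4 or more summits was higher in KO after TMM scaling, against 42.6% of those with 2. Signal moved along with this order. With members cut into 4 equal classes of mean RPM, from lowest to highest, the median difference with library totals was 1.05, 0.95, 0.72 and 0.43, and the share with 3 or more summits went from 0.289% to 38.6%. The distance between summits showed little of this, with medians of 0.80 where all summits lay within 50 bp and 0.67 where they spread over more than 300 bp. Summits were called from these same libraries, so no test was made between the classes, and the parts of signal and of peak calling in the order were not tested.

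**Figure D2:**
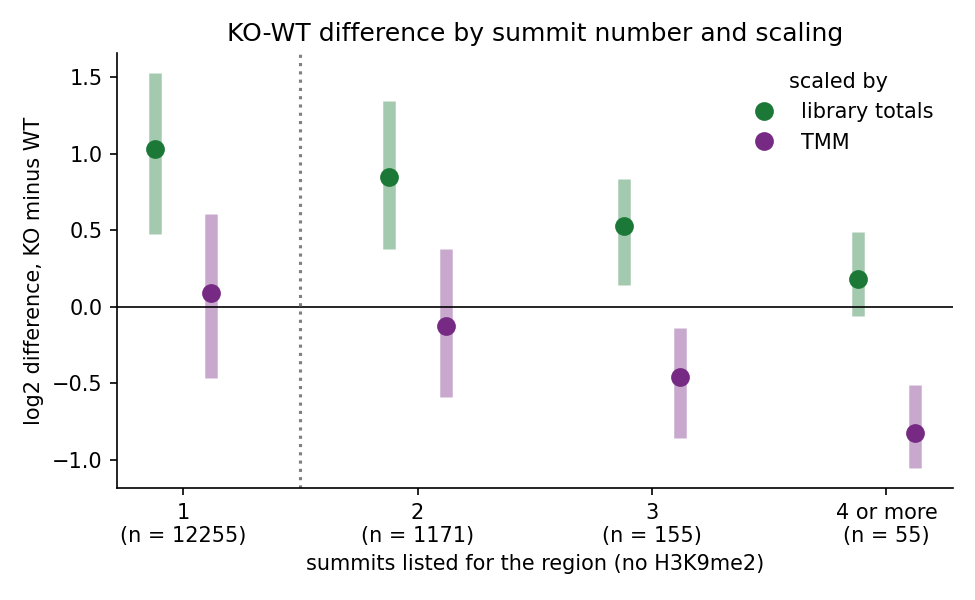
Log2 difference between genotypes (KO minus WT) by number of summits, scaled by library totals or by TMM. Points are medians over regions and bars reach from the lower to the upper quartile. The medians fall from 1.03 to 0.18 with library totals and from 0.09 to -0.82 with TMM as summits increase from 1 to 4 or more.

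In the edgeR quasi-likelihood test with TMM over all 14515 regions, 13 members were called lower in KO at an FDR under 0.05 (0.941%, against 0.971% of all regions) and 0 higher (against 0.0276%). DESeq2 called 10 lower and 0 higher. At an unadjusted p under 0.05 there were 172 lower (12.5%, against 8.16% of all regions) and 23 higher (1.67%, against 0.985%). With library totals the split turned, with 23 members called higher (1.67%, against 0.785% of all regions) and 2 lower (0.145%, against 0.103%). The count rested on single libraries, with 1 call without either KO replicate, the member near Gm36079 in both cases, 74 without WT replicate 1 and 31 without WT replicate 2. Of the 13 members called lower, 7 lay on chromosome 13, which held 66 members, and in 7 WT library 2 was over 2 times WT library 1 in RPM, as at 17.0% of all members.

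The member that fell most lay 0.211 kb from Gm36079, at chr13:120025530-120026227, with counts of 6 and 1 in KO and 10 and 194 in WT. WT library 2 alone was high there, and WT library 1 was near KO replicate 1. The log2 fold change was -5.36 ± 0.63 (SE, edgeR adjusted p = 1.99e-13). Near Gm48186, at chr13:65651954-65652486, the counts were 18 and 11 in KO and 29 and 103 in WT, and the log2 fold change was -2.76 (adjusted p = 4.01e-04). The member near Gm48361, at chr13:66642083-66642631, had 29 and 27 in KO and 38 and 122 in WT, or 7.15 and 6.06 RPM against 6.71 and 21.6, so that the genotypes overlapped in RPM. At both, most of the WT signal again came from library 2. Without WT replicate 2 the edgeR log2 fold changes of the 3 were -2.08, -1.63 and -1.10, and none passed (adjusted p = 0.949, 0.562 and 0.614).

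Other members fell with both WT libraries high. In an intron of AW554918, at chr18:25414520-25414962, counts were 42 and 76 in KO and 184 and 190 in WT, a log2 fold change of -2.32 ± 0.44 (adjusted p = 1.15e-04). A repeat-masked member 43.0 kb from Gm9621, at chr9:93435408-93435708, had counts of 10 and 2 in KO, and of 25 and 30 in WT (log2 fold change -2.75 ± 0.74, adjusted p = 0.0254). With library totals neither of this pair passed (adjusted p = 0.0801 and 0.190). The call near Gm9621 was also lost without each of the 4 libraries in turn (adjusted p between 0.147 and 0.723), and that of AW554918 without either KO replicate (0.724 and 0.300). The remaining calls were examined after their values were seen. In an intron of D430042O09Rik, at chr7:125801401-125801649, counts were 112 and 129 in KO and 283 and 261 in WT (log2 fold change -1.81). Over a coding exon of Cdc27, a subunit of the anaphase-promoting complex, a 4-summit member had 70 and 73 in KO and 164 and 147 in WT (-1.75, adjusted p = 0.0113). In an intron of Lyst, a regulator of lysosome traffic, counts were 26 and 21 in KO and 62 and 59 in WT (-1.97). At these 3 the KO and WT counts did not overlap and the 2 WT libraries were close to each other. With library totals their log2 fold changes were -0.79, -0.73 and -0.97 and none of the 3 passed.

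The other calls were less even, apart from the one near Tox3. In an intron of 2410141K09Rik, at chr13:66426541-66427089, counts were 23 and 11 in KO and 15 and 156 in WT (log2 fold change -2.88, adjusted p = 7.91e-05). WT library 2 alone was high and the genotypes overlapped, with 5.72 RPM in KO replicate 1 against 2.75 in WT replicate 1. With the member near Gm36079 it made up the 2 called lower under both scalings (adjusted p = 0.0340 here with library totals). Both lay close to H3K9me2, with the nearest such region 0.001 kb from this member and 0.486 kb from the one near Gm36079. Of the 13 members called lower with TMM, 8 had no H3K9me2 region within 5 kb, whereas only 3.98% of all members had one that close. WT library 2 was also the high one near Gm48186 at chr13:65660997-65661528 (24 and 41 in KO, 29 and 135 in WT), near Gm48360 (27 and 30 against 33 and 105) and near Gm9229 (37 and 46 against 52 and 133). Near Tox3, 97.3 kb away, both WT libraries were high, with 50 and 62 in KO and 125 and 100 in WT (log2 fold change -1.65, adjusted p = 0.0379). With library totals these last 4 were not called (adjusted p between 0.210 and 0.331).

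The members called higher with library totals were also singled out after their values were seen. Of the 23, 22 had 2 summits, as had 84.8% of all members, and 16 were intergenic, near the 69.0% of all members. The log2 fold changes ran from 2.04 to 3.98. At chr3:71204653-71205080, 196.0 kb from the pseudogene Gm8599, counts were 36 and 27 in KO and 4 and 1 in WT (log2 fold change 3.98, adjusted p = 0.00149). Beside Mir99ahg, the host gene of microRNAs, at chr16:77230008-77230695, they were 43 and 32 in KO and 5 and 4 in WT (3.41, adjusted p = 0.00144). With TMM the log2 fold changes of this pair were 2.99 and 2.42 and neither passed, with adjusted p of 0.0877 and 0.0948.

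None of the 7 members named for signal, width or summit number passed the edgeR test with TMM, with adjusted p between 0.205 and 0.837. The one with the most signal, in an intron of the noncoding gene C230088H06Rik at chr4:147401191-147402395, had 5 summits and counts of 342 and 390 in KO and 443 and 398 in WT, which is 81.7 and 84.6 RPM against 76.4 and 70.0. Mir6236, at chr9:110281124-110281535, had 61.7 and 58.4 RPM in KO and 46.3 and 34.9 in WT. A member 10.7 kb from 1700092C17Rik, at chr2:22745076-22745315, had 54.5 and 54.5 RPM in KO and 51.3 and 30.0 in WT. The widest, 1283 bp in an intron of the kinase gene Lrrk1, had 21.7 and 23.1 RPM in KO and 13.3 and 27.2 in WT. The next, 1233 bp over the coding exon of Klf14, had 24.1 and 19.7 in KO and 24.4 and 25.3 in WT. The member with 7 summits, at chr10:22470391-22471477, had 32.6 and 33.1 in KO and 39.9 and 27.0 in WT. The other with 5 summits lay 32.3 kb from Apba2, at chr7:64468741-64469398, with 13.1 and 11.2 in KO and 13.4 and 16.7 in WT. In RPM both KO libraries were on top at the 3 with the most signal and below both WT libraries at Klf14 and near Apba2, and the genotypes overlapped at the other two.

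**Figure D3:**
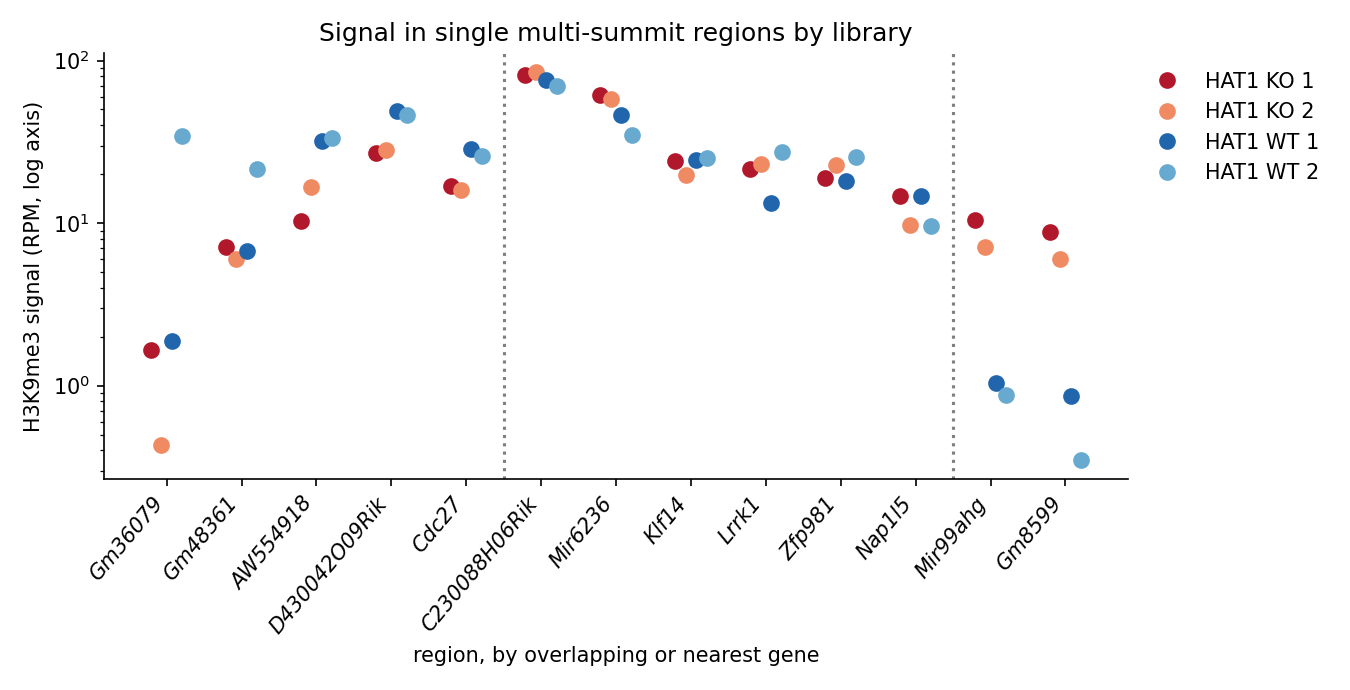
H3K9me3 signal (deposited RPM, log axis) in 13 members, named by the overlapping or nearest gene, with 1 point per library. From left to right are 5 members called lower in KO with TMM, 6 named for signal, width or gene group, and 2 called higher with library totals. WT library 2 alone is high at Gm36079 (34.2 RPM, against 1.89 in WT library 1), both WT libraries are high at D430042O09Rik and Cdc27, and both KO libraries lie above both WT libraries at Mir99ahg and Gm8599.

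CpG density went with the genotype difference. Members with up to 0.5 CpG per 100 bases had a median difference of 0.98 with library totals (n = 377), and those with over 4 had 0.34 (n = 126), with 0.88, 0.69 and 0.54 in the bins between. With TMM the medians ran from 0.02 to -0.64. In the first bin the library medians were 6.67 and 6.49 RPM in KO and 3.10 and 3.69 in WT. In the last they were 7.26 and 7.36 in KO and 6.54 and 5.44 in WT, so the KO levels were alike and the WT levels were not. The share of members with both KO libraries above both WT libraries went from 70.3% to 30.2%. One-summit regions without H3K9me2 had the same order over these bins, with shares from 64.3% to 39.5% and median differences from 1.14 to 0.60.

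CpG-rich members also had more signal, with a median of 6.66 RPM over 4 CpG per 100 bases against 4.82 RPM up to 0.5. Within each of the 4 classes of signal, members with up to 0.5 CpG per 100 bases lay above those with over 2, at 1.39 against 0.63 in the lowest class and 0.63 against 0.33 in the highest. Members share libraries and sequence, so these are descriptions, and the part of signal in this order was not tested beyond these classes.

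**Figure D4:**
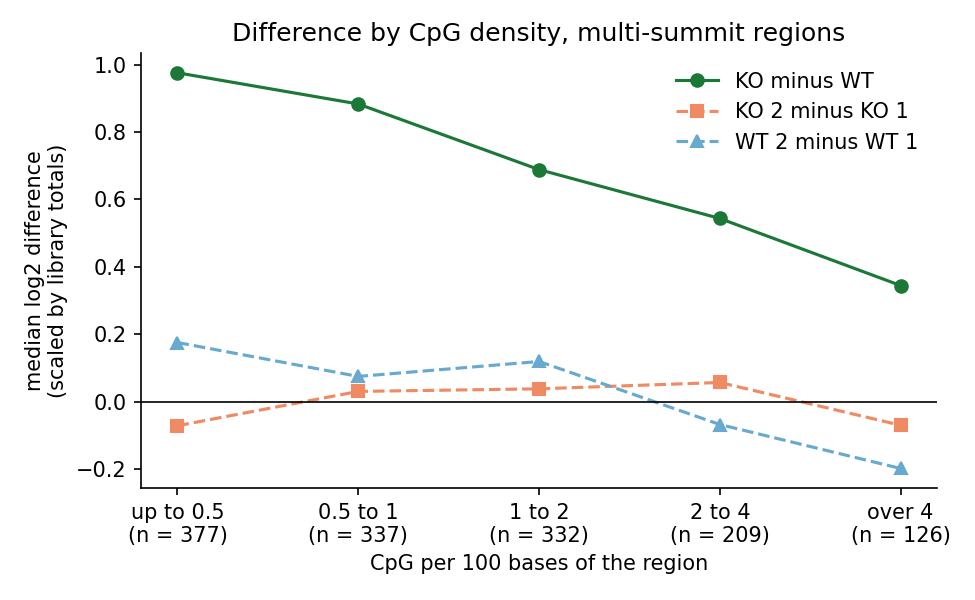
Median log2 difference scaled by library totals, by CpG density of the member, for KO minus WT and for the 2 libraries of each genotype. The genotype difference falls from 0.98 to 0.34 across the bins, while KO 2 minus KO 1 stays between -0.07 and 0.06 and WT 2 minus WT 1 goes from 0.18 to -0.20.

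The groups printed above were chosen after their values were seen, so their values are a description. Over all members both KO libraries lay above both WT libraries at 58.5%, and over all regions at 58.7%. In group 1, with a median of 1.27 CpG per 100 bases although its printed window held 0 CG, the median difference was 0.77 over 18 members, close to the 0.76 of all members, and both KO libraries lay above both WT libraries in 13. In group 6, with 0.732 CpG per 100 bases, the median difference was 1.49 over 13 members, and both KO libraries lay above both WT libraries in 12. In group 4, with 0.706 CpG per 100 bases, it was 0.95 over 16 members, and both KO libraries lay above both WT libraries in 10, near that background. In the CpG-rich groups 7 and 8, with 3.45 and 3.56 CpG per 100 bases, it was 0.36 over 13 members and 0.42 over 12. There both KO libraries exceeded both WT libraries in 4 members each. With TMM the medians of groups 1, 4, 6, 7 and 8 were -0.21, 0.0060, 0.52, -0.62 and -0.55. Over all regions of each group, members or not, the medians with library totals were 0.90, 1.10, 1.17, 0.64 and 0.58, so the groups were closer together. Median RPM in group 6 was 7.15 and 6.27 in KO and 3.27 and 2.63 in WT. In group 7 it was 5.95 and 5.62 in KO and 4.82 and 4.39 in WT. Within-group ranges were wide, from 0.19 to 3.42 in group 6 and from -1.96 to 2.11 in group 7. Members with a match elsewhere in the table had a median difference of 0.78, and those without had 0.73.

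The members lay mostly outside genes. Intergenic sequence held 953 (69.0%), introns 332 (24.0%), untranslated or noncoding exons 58 (4.20%) and coding exons 38 (2.75%). One-summit regions differed little, with 72.5%, 22.3%, 3.32% and 1.80%. Of the multi-summit regions that shared H3K9me2, 48.5% were intergenic and 16.7% lay within 1 kb of a transcription start, against 7.39% of members for the latter. Among members that share was 6.40% at 2 summits, 11.6% at 3 and 16.4% at 4 or more. The reference's soft-masking, which marks repeats, covered a median of 70.1% of the bases of a member, and 22.9% of members were masked over more than 90%. The nearest H3K9me2 region was a median of 280 kb away, and 55 members (3.98%) had one within 5 kb.

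Chromosome 4 had the most members, 124, or 7.92 per 10 Mb against 5.24 over all the chromosomes used, and chromosome 11 the fewest, 22 or 1.80 per 10 Mb. A stretch from 145 to 148 Mb of chromosome 4, known for a cluster of young zinc-finger genes, held 54 of the 124 and was singled out for that number. Its median RPM was 10.2 and 11.2 in KO and 8.60 and 10.7 in WT. The median difference there was 0.16 with library totals and -0.83 with TMM, and 3 of the 54 were higher in KO with TMM. Members elsewhere had medians of 0.80 and -0.17. The stretch also held 13 of the 55 members with 4 or more summits. The other 42 had a median of 0.31 with library totals, and the 31 members with 2 summits in the stretch had 0.29. The rest of chromosome 4 lay between, at 0.43 over 70 members. In contrast, chromosomes 15, 16 and 19 had medians of 1.03, 1.03 and 1.04.

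Chromosome X differed between the WT libraries. Over its 81 members the median RPM was 6.19 and 6.92 in KO, and 2.07 and 5.09 in WT. WT library 2 exceeded WT library 1 in 76 of the 81, against 50.8% of the 1300 members on chromosomes 1-19. The median of WT 2 minus WT 1 was 1.21 on X, 0.44 on chromosome 13 and 0.03 over chromosomes 1-19. The genotype difference on X, 1.02, was thus smaller than the difference within WT. Members off chromosome X alone had a median of 0.75 with library totals and -0.23 with TMM.

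**Figure D5:**
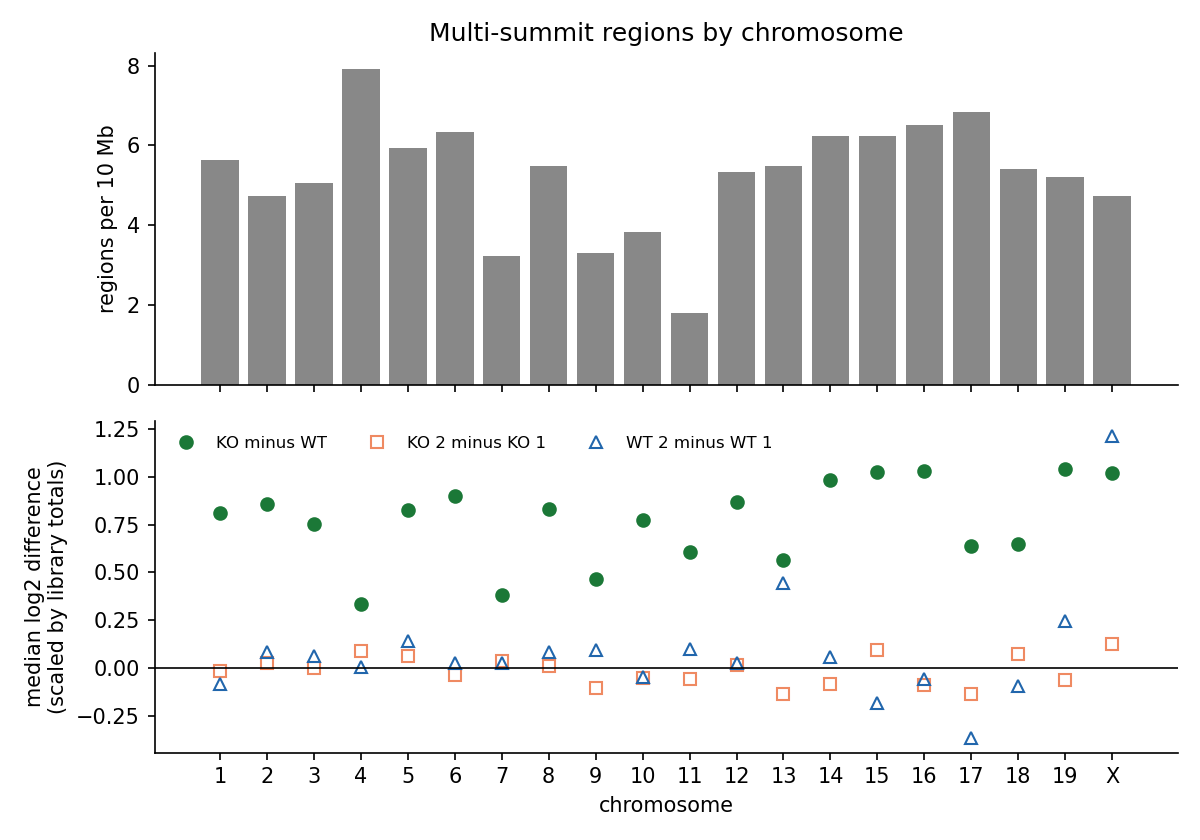
Members by chromosome. The upper bars give members per 10 Mb, highest on chromosome 4 (7.92) and lowest on chromosome 11 (1.80). The lower panel gives the median log2 difference scaled by library totals for KO minus WT and within each genotype, and WT 2 minus WT 1 reaches 1.21 on X.

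Zinc-finger genes, whose 3′ exons are known targets of H3K9me3, overlapped 21 members, or 1.52%, against 0.946% of all regions on these chromosomes. Of these, 13 lay on chromosome 4. The median difference was 0.13 with library totals and -0.84 with TMM, against 0.31 and -0.66 over all 136 zinc-finger regions. With library totals 12 of 21 were higher in KO, with TMM 3, and 0 passed edgeR under either scaling. The strongest, a 4-summit member in an intron of Zfp981 at chr4:146523882-146524509, had counts of 79 and 104 in KO and 104 and 144 in WT. Coding exons were hit in 4. Zfp180 had 58 and 55 in KO and 70 and 83 in WT, and Zkscan8 had 17 and 24 against 45 and 38. Zfp160 had 30 and 41 against 52 and 34, and Zfp990 had 11 and 23 against 7 and 29. In RPM both KO libraries were below both WT libraries at Zkscan8 (4.29 and 5.41 against 7.92 and 6.85), and the genotypes overlapped at the other three.

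Olfactory and vomeronasal receptor genes, sensory receptors that are silent in fibroblasts, overlapped 23 members, or 1.67%, against 1.38% of all regions on these chromosomes. Their values lay nearer to those of all members. Their median difference was 0.84 with library totals and -0.14 with TMM, against 0.93 and -0.02 over all 199 receptor regions. By library totals 20 of 23 were higher in KO, near the 86.5% of all members. The member with the most signal overlapped an exon of Vmn2r-ps18, with 51 and 48 in KO and 46 and 60 in WT. The 1 that passed edgeR with library totals was in an intron of Vmn2r57, with 38 and 43 in KO and 12 and 6 in WT (log2 fold change 2.54, adjusted p = 0.0136). It was not called with TMM.

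Imprinted genes, which are expressed from 1 parental copy, overlapped 2 members by the list used (0.145%, against 0.0487% of all regions on these chromosomes). The list does not hold Klf14, an imprinted gene in mouse whose member is described above. Over Nap1l5, a paternally expressed gene inside an intron of Herc3, a 3-summit member at chr6:58906531-58907481 had counts of 61 and 44 in KO and 84 and 54 in WT. In RPM that was 14.8 and 9.74 against 14.6 and 9.66, so the genotypes overlapped. Over the noncoding RNA Kcnq1ot1, at chr7:143236304-143236819, counts were 13 and 7 in KO and 30 and 28 in WT, lower in both KO libraries. The log2 fold change was -2.13 with TMM (edgeR adjusted p = 0.0948) and -1.13 with library totals (adjusted p = 0.284). Protocadherins, neuronal adhesion genes, had 2 members (0.145%, against 0.257% of all regions on these chromosomes). Over Pcdhb11 the counts were 14 and 55 in KO and 67 and 28 in WT, with spread within both genotypes. Over Pcdh11x, on chromosome X where WT library 2 stood apart, they were 28 and 33 in KO and 4 and 16 in WT, and in RPM each KO library exceeded each WT library (log2 fold change 1.97 with library totals, edgeR adjusted p = 0.0949). The WT libraries differed by 1.76 there on the log2 scale. Neither passed edgeR under either scaling. Genes of the H3K9 methylation machinery had 0 members, as in the whole table.

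Short motifs were searched on both strands as exact letters. TGGTGCCGA, the start of a primer binding site matching phenylalanine tRNA that IAP-type retroviruses use, occurred in 23 members (1.67%), against 0.717% of all regions. TGGGGGCTC, the proline form, occurred in 21 (1.52%, against 0.849%), and TGGCGCCCG, the lysine form, in 6 (0.434%, against 0.188%). GGAGAGAAA, which codes part of the linker between zinc fingers, was found in 23 (1.67%, against 1.16%), and TGCCGC, the ZFP57 motif, in 90 (6.52%, against 4.12%). TATGGCGAG of the major satellite was found in 1 (0.0724%, against 0.244%). Members are wider than other regions, and in windows of equal length, 300 bases around the first summit, the shares drew together for all but the satellite letters. They were 0.941% against 0.675% for phenylalanine, 0.579% against 0.724% for proline and 0.217% against 0.167% for lysine. For the linker they were 1.09% against 1.09%, for ZFP57 4.34% against 3.78%, and for the satellite letters 0% against 0.244%.

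By the median difference with library totals, members holding the phenylalanine motif had 0.38, the ZFP57 motif 0.43, the linker motif 0.47 and the proline motif 0.64. These lay below the 0.76 of all members, and those with the lysine motif had 0.93. With TMM the medians were -0.62, -0.56, -0.51, -0.34 and -0.04 in that order, against -0.21 over all members. Median signal in these holders was between 5.81 RPM (lysine) and 7.40 RPM (proline), against 5.49 over all members. The parts of signal and CpG density in these values were not tested. The phenylalanine-motif member with the most signal lay 51.4 kb from Btbd35f29, at chrX:31170594-31171146, with counts of 89 and 153 in KO and 66 and 202 in WT. Here the spread within each genotype was larger than the difference between them. Among ZFP57-motif members the strongest overlapped an exon of Gm13241 at chr4:146475207-146475927, with 119 and 150 in KO and 194 and 165 in WT, or 28.6 and 32.7 RPM against 33.6 and 29.1. The lysine-motif member near Serpinb6c had 27 and 37 in KO and 57 and 28 in WT. For the linker motif it lay 12.8 kb from Vmn1r-ps151 with 73 and 91 in KO and 101 and 113 in WT, and for the satellite letters 6.24 kb from Vmn1r42 with 71 and 90 in KO and 102 and 115 in WT. For the proline motif it was the Klf14 member. With library totals the edgeR log2 fold changes at these last 4 were -0.03, -0.01, -0.05 and -0.19 in that order. With TMM they were -1.06, -1.02, -1.06 and -1.20, and none passed under either scaling.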

How the data were processed

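The study's methods name BWA 0.7.12 for alignment of read pairs to mm10, MACS2 2.1.0 for peaks and DiffBind for differences. Duplicate filters, the treatment of reads with several matches and the use of the spike-in in the totals are not given in the sources used here. The deposited count of each library in each region is not normalized. The deposited RPM equals the count plus 1 over one total per library, which gave the library totals. The authors' fold change, fold enrichment, p-value and q-value columns were not used.

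Identical rows were dropped (314 of 14829 for H3K9me3, 62 of 2045 for H3K9me2). Starts were read as counted from 0 and are printed counted from 1. Genes came from GENCODE release M21, bases and soft-masking from GRCm38.p6. Counts were tested with edgeR 4.0.16 (R 4.3.3, glmQLFit and glmQLFTest, library totals with TMM, no filter, Benjamini-Hochberg FDR under 0.05, two-sided) over all 14515 regions, and with library totals alone. SEs are the log2 fold change over the root of F. Medians of difference used log2 scaled counts with a pseudocount of 1. Windows were aligned with blastn 2.17.0. DESeq2 1.42.0 was an alternative. The scripts were tested on simulated data.

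Groups came from the sample titles. The samples came from separate embryos by the protocol, but the titles do not say which, so p-values measure the spread between these samples. The members, gene groups and motifs were chosen with earlier results of these data known. Named members were the 5 called members that fell most with both KO libraries on one side of both WT libraries in TMM-scaled counts (0 such rose), the 3 with the most signal, the 3 widest, the 3 with the most summits, the strongest of each gene group and motif, and 1 region on each side of the summit threshold. Others are named as chosen after their values were seen.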

Additional observations from a re-analysis of the deposited data

How the results depend on the processing

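Scaling decided the direction. The 13 called members (0 higher, 13 lower) became 25 (23 higher, 2 lower) with library totals alone and 6 (2 higher, 4 lower) with reads in regions as library size. The median difference of -0.21 became 0.76 and 0.14, and the share of members higher in KO went from 38.2% to 86.5% and 58.4%. The difference in the share of reads held by members, 0.369 percentage points of the library, became -0.188 points of the reads in all H3K9me3 regions. With library totals alone, 8 of the 22 named members also changed sign: C230088H06Rik (0.18), Mir6236 (0.56), 1700092C17Rik (0.42), Lrrk1 (0.15), Vmn2r-ps18 (0.29), Nap1l5 (0.0045), Btbd35f29 (0.21) and Areg (0.41). With each library left out in turn, Btbd35f29 lay between -1.36 (without WT replicate 1) and 0.18 (without WT replicate 2). Areg lay between -2.35 (without KO replicate 2) and 1.80 (without WT replicate 1), and was at 0.080 without KO replicate 1. DESeq2 did not call the member near Gm36079 (adjusted p = 0.0808) and gave no adjusted p for the one nearest to Gm9621. The cause was not tested.

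Counts of calls rested on single libraries. Leaving out each library in turn gave between 1 and 74 calls, 1 without KO replicate 1, 1 without KO replicate 2, 74 without WT replicate 1 and 31 without WT replicate 2. A lone library is then assumed to vary like the other genotype's pair. The median stayed between -0.24 and -0.13, the share between 39.0% and 44.2%, and the difference in reads between 0.346 and 0.391. There were 27 calls (2 higher, 25 lower) at an FDR under 0.1. Leaving aside the 55 members with H3K9me2 within 5 kb left 8 calls, and leaving aside the 66 on chromosome 13 left 6. There was 1 call among members with 3 or more summits, a set of only 155 with 3 and 55 with 4 or more. With TMM at an FDR under 0.05, 0.941% of members and 0.971% of all regions were called lower. Such shares are not given for the other settings, so their counts are not a result about the members. With 3 or more summits the median was -0.57, the share 13.3% and the difference in reads 0.0536, with fewer regions summed and a KO to WT ratio of 1.27 in place of 1.52. Off chromosome X it was 0.345. Chromosome alternatives were chosen after seeing the data.

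With the replicate number as a block there were 10 calls, all lower, and none of the 22 members named by the rule changed its call or direction. Of the other eight called members, those near Gm9229, Gm48360 and the second near Gm48186 were not called with the block (adjusted p = 0.0786, 0.110 and 0.104). The numbers share no animal, and KO 2 minus KO 1 had a correlation of 0.00417 with WT 2 minus WT 1 over all regions, so no pairing was used. DESeq2 size factors (12 calls), the filter at a mean count of 10 (13), repeat rows kept (13) and a pseudocount of 0.1 (median -0.22) left direction and counts within 1.5 times. Low counts limit what single regions can show.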
